A study of Mus musculus with 9 samples.

Results

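Gata1, Gata2 and Gfi1b, 3 transcription factor genes of blood cell development, were followed in RNA sequencing of cultured mouse endothelial progenitor cells (EPCs). They were chosen by name among the 2810 genes that the 3 deposited tables hold together, with their levels in these libraries already known, so the values that compare EPCs of male mice with the other groups are given as a description and carry no test. All 3 genes were listed in the tables that compare male with female cells (2093 genes) and male with ovariectomized cells (1317 genes), and none in the table that compares female with ovariectomized cells (811 genes). The tables list only genes that passed the authors' screen for a difference between the groups, so every gene in them had to differ.

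The study asked which sex differences of EPCs do not depend on estrogen. Bone marrow of 8-week-old C57BL/6J mice was depleted of lineage-positive cells, cells carrying Sca-1 and CD31 were selected with magnetic beads, and the cells were expanded on gelatin in endothelial growth medium without estrogen. The 3 groups were EPCs of male mice (M-EPC), of female mice (F-EPC) and of female mice whose ovaries the supplier removed at around 35 days of age (OVX-EPC), with no transgene or drug given in their labels, with 3 libraries per group and 9 in all. The study's methods call the sequenced samples biological replicates. Whether a library came from 1 animal or a pool was not given in the sources used here.

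GATA1 and GATA2 are zinc finger proteins that bind the DNA sequence GATA. GATA2 maintains hematopoietic stem and progenitor cells and is also used by mast cells and endothelial cells, while GATA1 drives erythroid, megakaryocyte, eosinophil and mast cell differentiation and replaces GATA2 on shared sites as erythroid cells mature. GFI1B is a zinc finger repressor that recruits histone demethylase and deacetylase complexes, has a gene that GATA1 is known to bind, and is needed for red cells and platelets.

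In the GRCm38 assembly, with GENCODE annotation, Gata1 lies on the minus strand of chromosome X (7959260 to 7978071), Gata2 on the plus strand of chromosome 6 (88193891 to 88207032) and Gfi1b on the minus strand of chromosome 2 (28609450 to 28621982). No other annotated gene overlaps them. The promoters of the 3 genes are shown because their transcripts were low together in M-EPC. Each is the 250 bases before a RefSeq start site in GRCm38.p6, 5′ to 3′ on the gene's strand, at chr2:28621983-28622232 for Gfi1b, chrX:7967911-7968160 for Gata1 and chr6:88193641-88193890 for Gata2. All 3 genes matched the RefSeq table, which gives Gata2 a second start whose window lies over an exon of another Gata2 transcript and is not shown. Capitals mark a GATA motif, that is GATA with A or T before it and A or G after it, or AAATCA, the core bound by the GFI1 family. Both were searched on both strands, and they did not overlap.
Gfi1b: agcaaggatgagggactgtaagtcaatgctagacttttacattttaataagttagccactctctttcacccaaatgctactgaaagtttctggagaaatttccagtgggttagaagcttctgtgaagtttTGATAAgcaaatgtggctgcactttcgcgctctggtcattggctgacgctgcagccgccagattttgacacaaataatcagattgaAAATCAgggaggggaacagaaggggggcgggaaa
Gata1: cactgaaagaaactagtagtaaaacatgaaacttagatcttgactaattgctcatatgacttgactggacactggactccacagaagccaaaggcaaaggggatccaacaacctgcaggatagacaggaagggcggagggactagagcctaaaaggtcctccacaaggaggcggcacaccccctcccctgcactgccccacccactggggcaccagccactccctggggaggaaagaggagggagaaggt
Gata2: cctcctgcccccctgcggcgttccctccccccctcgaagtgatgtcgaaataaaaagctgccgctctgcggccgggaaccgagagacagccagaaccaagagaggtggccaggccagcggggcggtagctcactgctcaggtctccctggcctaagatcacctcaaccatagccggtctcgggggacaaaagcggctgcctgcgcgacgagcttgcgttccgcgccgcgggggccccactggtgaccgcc
The Gfi1b window held 1 GATA motif, TGATAA, whose first base lies 120 bases before the start, and 1 AAATCA at 34 bases before it. Neither motif was in the Gata1 window or in either Gata2 window. Among 32851 promoter windows of the same length, 26.5% held a GATA motif, 12.4% held AAATCA and 4.65% held both. A match describes letters and is not a binding site.

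The libraries went with their labels. Xist, the RNA that silences 1 X chromosome in female cells, was between 0 and 7.17 normalized counts in M-EPC against at least 42463 in F-EPC, and the Y-linked genes Ddx3y, Eif2s3y, Kdm5d and Uty were at 0 in every F-EPC and OVX-EPC library. Normalized counts are reads scaled by a size factor, which the authors set for every library anew in each table and which ran from 0.819 to 1.11. Listed genes held between 1602317 and 2070442 reads per library in the table of M-EPC against F-EPC, between 707791 and 923145 in that of M-EPC against OVX-EPC and between 454298 and 468833 in the third. The total depth of the libraries is unknown. Of the endothelial markers, Pecam1 (CD31), Kdr and Vwf were listed, while Cdh5, Tek, Emcn and Nos3 were in none of the tables, so their levels are not known.

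In M-EPC all 3 factors were at or near 0 reads, and in F-EPC and OVX-EPC each had between 47 and 168 reads in every library. Gata1 had 4, 1 and 0 reads in M-EPC 1, 2 and 3. In F-EPC it had 69, 111 and 47 reads and in OVX-EPC 114, 167 and 137 reads. M-EPC 1 was thus the highest M-EPC library for Gata1, far below the lowest F-EPC library, F-EPC 3. Gata2 had 0, 5 and 0 reads in M-EPC, 114, 98 and 104 reads in F-EPC and 129, 135 and 168 reads in OVX-EPC. Its M-EPC reads all came from M-EPC 2. Gfi1b had 0, 1 and 0 reads in M-EPC, 50, 84 and 47 reads in F-EPC and 96, 106 and 95 reads in OVX-EPC. For none of the 3 genes did an M-EPC library overlap an F-EPC or OVX-EPC library. All 3 of 3 genes therefore had every M-EPC library below every F-EPC library, as did 49.6% of the listed genes, and every M-EPC library below every OVX-EPC library, as did 58.0% of the listed genes. These shares are the background in tables of selected genes, and nothing is read from the members' count. In bulk RNA, fewer cells of a type and less RNA per cell cannot be told apart.

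**Figure D1:**
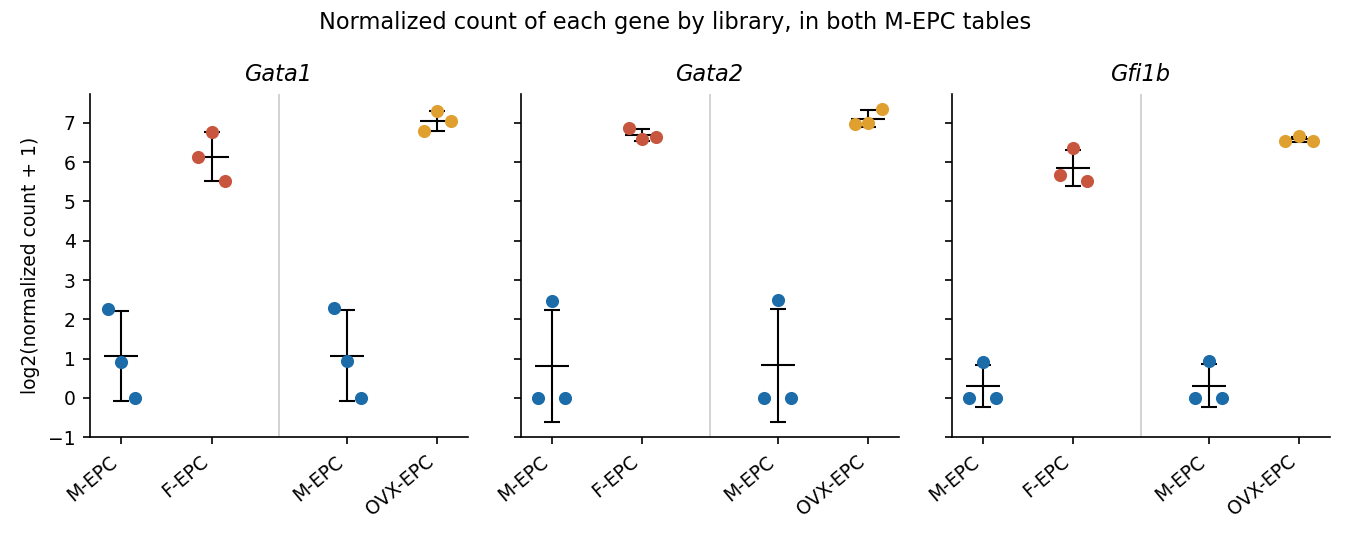
Normalized counts of Gata1, Gata2 and Gfi1b on the log2(normalized count + 1) scale. Each point is a library, horizontal bars are means, error bars are SD (n = 3), and the grey line separates the 2 tables, which hold the same M-EPC libraries. The M-EPC points lie far below the F-EPC and OVX-EPC points for all 3 genes.

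Between M-EPC and F-EPC, Gata2 had the largest difference of the 3 by the log2 fold change. Its normalized count was 1.497 ± 2.59 (SD, n = 3) in M-EPC and 102.9 ± 10.8 in F-EPC, a log2 fold change of -5.87 (SE 0.71) on the log2(normalized count + 1) scale. Gfi1b was at 0.299 ± 0.519 and 58.8 ± 19.8, a log2 fold change of -5.54 (SE 0.36). Gata1 was at 1.57 ± 1.99 and 73.9 ± 31.7, a log2 fold change of -5.07 (SE 0.65). From the lowest log2 fold change up, these were the 4th, 13th and 21st of 2093 listed genes, and among the 75 listed genes that the authors' KEGG annotation classes as transcription factors they were the 1st, 2nd and 3rd. The same table had a median log2 fold change of -0.99 over all listed genes, which turned to 0.99 with a filter at a mean of 10, and of -1.72 over those that were lower in M-EPC.

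With so few reads in M-EPC, the pseudocount understates the fold and the order of the 3 genes is not fixed. The ratio of summed reads per size factor, F-EPC over M-EPC, was 44.3 for Gata1 (5 against 227 reads, exact 95% interval 18.7 to 137.6), 61.6 for Gata2 (5 against 316 reads, interval 26.1 to 191.1) and 176.4 for Gfi1b (1 against 181 reads, interval 31.3 to 7007). By this measure Gfi1b had the largest ratio, and the 3 intervals overlap. They cover counting error only. Single M-EPC libraries also weighed on the values: the log2 fold change of Gata2 was -6.69 without M-EPC 2, and that of Gata1 was -5.68 without M-EPC 1.

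Against OVX-EPC, which were compared with the same M-EPC libraries, the 3 genes lay close together. Gata2 was at 1.53 ± 2.65 (SD, n = 3) normalized counts in M-EPC and 137.9 ± 21.0 in OVX-EPC, a log2 fold change of -6.28 (SE 0.71). Gfi1b was at 0.306 ± 0.530 and 94.7 ± 4.59, a log2 fold change of -6.27 (SE 0.29). Gata1 was at 1.605 ± 2.04 and 133.2 ± 23.9, a log2 fold change of -5.98 (SE 0.58). They were the 6th, 7th and 15th lowest of 1317 listed genes and again the lowest 3 of the listed transcription factors, 40 in this table. The median log2 fold change was -1.26 over all listed genes and -2.36 over those lower in M-EPC.

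The ratios of summed reads, OVX-EPC over M-EPC, were 78.3 for Gata1 (interval 33.3 to 242.3), 80.9 for Gata2 (interval 34.4 to 250.4) and 278.03 for Gfi1b (interval 49.5 to 11018). Without M-EPC 2 the log2 fold change of Gata2 was -7.11, and without M-EPC 1 that of Gata1 was -6.58. The values of the 2 comparisons share the M-EPC libraries and are set side by side only.

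**Figure D2:**
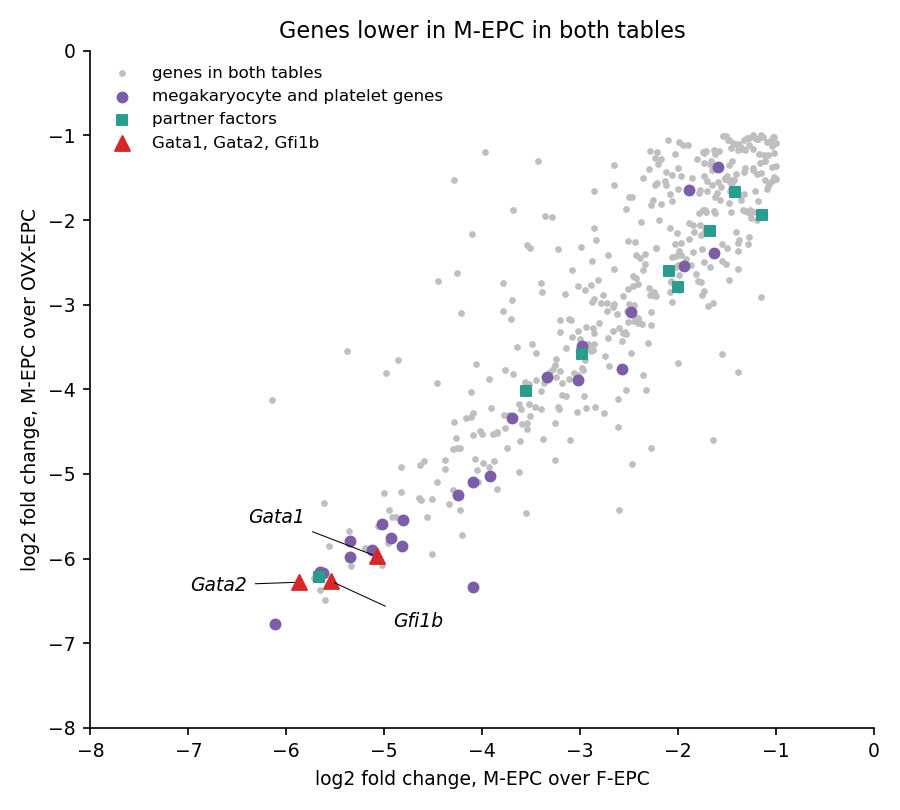
Log2 fold changes of the genes lower in M-EPC in both tables, against F-EPC (x axis) and against OVX-EPC (y axis), on the log2(normalized count + 1) scale. Grey points are single genes (458 drawn and 1 beyond the axes), squares the 8 partner factors, circles the 24 other megakaryocyte and platelet genes and triangles the 3 members, and both axes use the same M-EPC libraries, so positions along the diagonal are not independent. The triangles lie at the low end of both axes.

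F-EPC and OVX-EPC were compared after the data had been seen, since the table of that comparison lists none of the 3 genes. The reads recovered from the other tables were divided by that table's own size factors. Each gene then had a higher mean in OVX-EPC. Gata1, which had 72.3, 111.4 and 46.2 normalized counts in F-EPC and 111.8, 159.8 and 134.5 in OVX-EPC, differed by a log2 fold change of 0.89 (SE 0.35), or 1.85-fold. The groups all but touched: the highest F-EPC library and the lowest OVX-EPC library of Gata1 were nearly level, and they overlapped where size factors were chained through the M-EPC libraries instead (111.6 against 111.5). Gata2, with 119.4, 98.3 and 102.3 in F-EPC and 126.5, 129.2 and 165.0 in OVX-EPC, differed by 0.39 (SE 0.16), or 1.31-fold. Gfi1b, with 52.4, 84.3 and 46.2 in F-EPC and 94.1, 101.4 and 93.3 in OVX-EPC, differed by 0.70 (SE 0.24), or 1.62-fold.

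For each of the 3 genes every OVX-EPC library was above every F-EPC library, which also held for 37.7% of the 807 genes listed in both M-EPC tables. An exact two-sided permutation test gave p = 0.10 for each gene, the smallest value that 3 libraries against 3 allow, so none could pass 0.05. The direction rests on the authors' size factors: with factors recomputed on the listed genes, Gata1, Gata2 and Gfi1b were instead higher in F-EPC, by 0.31, 0.74 and 0.47 on the log2 scale with edgeR's TMM factors and by 0.30, 0.73 and 0.47 with those of DESeq2. These factors shift the median of the listed genes by 1.13, more than any of the 3 differences. They were set on genes screened to differ between the groups, whose median was -1.31 in F-EPC minus OVX-EPC. Genes without a difference were left out of that set, so the reversal cannot decide the direction of the 3 genes. By the authors' factors, the 807 genes had a median of 0.33 higher in OVX-EPC, and those 459 that were lower in M-EPC in both tables a median of 0.38.

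**Figure D3:**
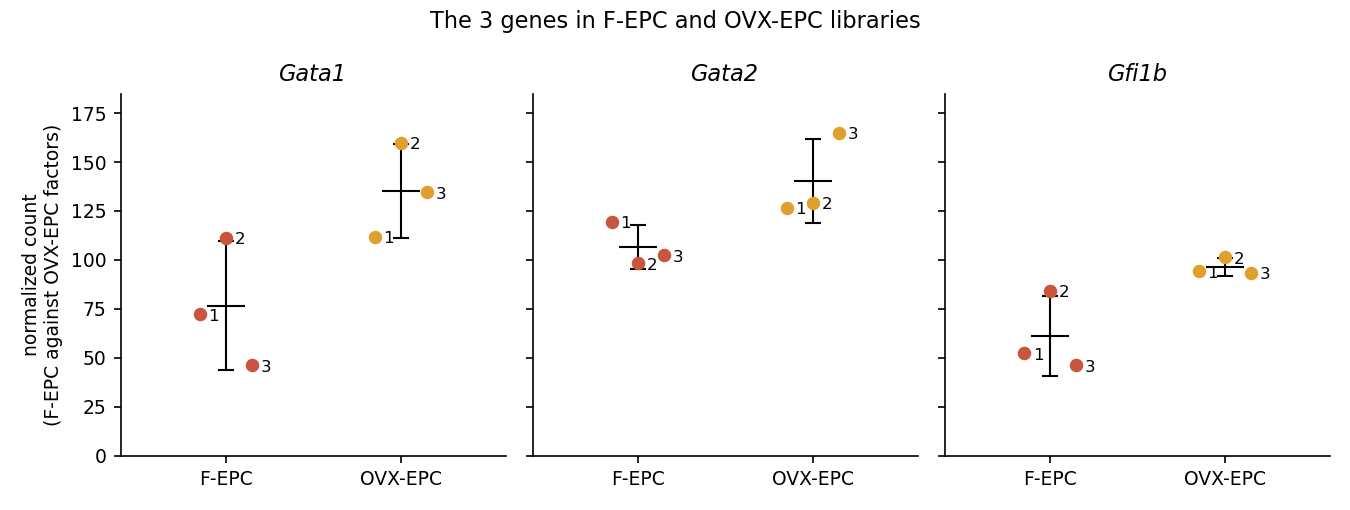
Normalized counts of Gata1, Gata2 and Gfi1b in F-EPC and OVX-EPC on the size factors of the table that compares these groups. Points are libraries with their replicate number, horizontal bars are means and error bars are SD (n = 3). The F-EPC 2 point is the highest F-EPC point for Gata1 (111.4) and Gfi1b (84.3) and the lowest for Gata2 (98.3).

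The 3 genes varied differently within the groups. In F-EPC the highest library was 2.41 times the lowest for Gata1, 1.83 times for Gfi1b and 1.21 times for Gata2. F-EPC 2 was the highest library for Gata1 and for Gfi1b, and the lowest for Gata2. In OVX-EPC the same ratio was 1.43 for Gata1, 1.30 for Gata2 and 1.09 for Gfi1b.

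Levels of different genes were compared per kilobase of annotated exon, 2438 bases for Gata1, 5398 for Gata2 and 1830 for Gfi1b. In F-EPC these levels were 33.3 ± 11.2 normalized counts per kilobase for Gfi1b, 31.4 ± 13.4 for Gata1 and 19.8 ± 2.08 for Gata2 (SD, n = 3). In OVX-EPC they were 55.5 ± 9.85 for Gata1, 52.6 ± 2.45 for Gfi1b and 25.98 ± 3.98 for Gata2. Gata1 and Gfi1b exchanged order between the groups and did not differ beyond their spread in either. The ratio of Gata1 to Gata2 per kilobase was 1.34, 2.51 and 1.001 in F-EPC 1, 2 and 3 and 1.96, 2.74 and 1.81 in OVX-EPC 1, 2 and 3, so that Gata2 was the lower of the pair by this measure in every library except F-EPC 3, where both were level. The ratio of Gfi1b to Gata1 stayed between 0.85 and 1.33 in the 6 libraries. Which isoforms the cells used is not known from gene counts, and a shorter transcript would raise a gene's level per kilobase. In M-EPC the levels of the 3 genes rest on 5 reads or fewer and were not ordered.

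The genes most like each factor were taken from the 807 genes listed in both M-EPC tables, by the root mean square difference of centred log2(normalized count + 1) over 12 values of the 9 libraries. For Gfi1b these were Irag1 (0.24), Ppbp, which encodes a platelet chemokine (0.27), Prss34, a basophil and mast cell protease (0.40), Gucy1a1, a subunit of soluble guanylate cyclase (0.41), and Mcpt8, a basophil protease (0.42), against a median of 2.31 over all genes. For Gata2 they were Irag1 (0.46), Prss34 (0.53), the phosphodiesterase gene Pde3a (0.56), Gfi1b itself (0.58) and Ppbp (0.64), against a median of 2.51. Gata1 was nearest to Dlg2 (0.45), Mmrn1, which encodes a platelet and endothelial matrix protein (0.48), Gcsam (0.49), the ATP receptor gene P2rx1 (0.52) and the potassium channel gene Kcnj5 (0.52), against a median of 2.23. Irag1, Ppbp and Prss34 stood among the nearest 5 of both Gata2 and Gfi1b. These distances depend in part on M-EPC libraries with few reads, which enter in both tables. Those libraries made up 35.7% to 59.0% of the squared difference for the near genes of Gata1. The share was 77.0% to 95.6% for those of Gata2 and 27.7% to 81.8% for those of Gfi1b. The order of near genes is therefore not firm. The genes were picked for their profile over these libraries, and their reads are given as a description. Mcpt8 had no read in any M-EPC library, 63, 48 and 49 reads in F-EPC and 85, 62 and 88 in OVX-EPC. Mmrn1 had 21, 18 and 7 reads in M-EPC, 613, 589 and 681 in F-EPC and 935, 1091 and 1006 in OVX-EPC.

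Other genes were called by limma where the adjusted p (Benjamini-Hochberg, all listed genes) was under 0.05 and the log2 fold change was 1 or more in size, which called 49.3% of the listed genes lower and 48.4% higher in M-EPC than in F-EPC, and 58.0% lower and 40.8% higher in M-EPC than in OVX-EPC. Of 43 genes whose products work with GATA1, GATA2 or GFI1B or in the same network, 10 were listed against F-EPC, 8 lower and 2 higher in M-EPC with a median log2 fold change of -1.84, and 9 against OVX-EPC, all 9 lower with a median of -2.61. The second set of values uses the same M-EPC libraries as the first. Every listed gene had already passed the authors' screen on these libraries. The limma p-values given below therefore describe listed genes and are no independent support.

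Of the cofactors that form complexes with GATA1, Zfpm1, which encodes the GATA1 partner FOG1, had 103, 88 and 70 reads in M-EPC, 240, 337 and 288 in F-EPC and 392, 417 and 415 in OVX-EPC. Its log2 fold change was -1.67 (SE 0.16, limma adjusted p = 0.00026) against F-EPC and -2.13 (SE 0.14, limma adjusted p = 9.4e-05) against OVX-EPC. The M-EPC libraries did not overlap the others, and unlike Gata1 this cofactor kept a clear level in each of them. Tal1, the basic helix-loop-helix factor of the same complex, was lower by -1.41 (SE 0.19) and -1.67 (SE 0.20), and the corepressor gene Cbfa2t3 (ETO2) by -3.56 (SE 0.37) and -4.02 (SE 0.31).

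Gfi1, the paralog of Gfi1b, was listed against OVX-EPC only, with 0, 2 and 2 reads in M-EPC and 12, 13 and 12 in OVX-EPC and a log2 fold change of -2.58 (SE 0.48). Gata3, Gata4, Gata5 and Gata6, the other GATA genes, were in none of the tables. The corepressor genes that GFI1B recruits, Kdm1a, Rcor1, Hdac1, Hdac2 and Hdac3, were in none either. Their levels are therefore not known here.

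Among the other factors, Nfe2, which drives platelet release, had log2 fold changes of -2.98 (SE 0.20) against F-EPC and -3.59 (SE 0.20) against OVX-EPC. Myb, a progenitor factor, was lower by -2.09 (SE 0.35) and -2.61 (SE 0.25), and Bcl11a, a repressor of fetal globin, by -2.00 (SE 0.35) and -2.79 (SE 0.31). Ikzf2, of the Ikaros family, was higher in M-EPC than in F-EPC by 1.21 (SE 0.15, limma adjusted p = 0.00069), a difference that fell to 0.88, under the fold threshold, with DESeq2's own size factors.

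The cytokine receptor genes known as GATA targets did not go one way. Kit, the stem cell factor receptor, was lower in M-EPC, by -1.14 (SE 0.22) against F-EPC and -1.94 (SE 0.17) against OVX-EPC, and the first was -0.94 and under the fold threshold without F-EPC 3. Epor, the erythropoietin receptor and a known GATA1 target, was higher in M-EPC than in F-EPC, with 259, 192 and 178 against 58, 70 and 97 reads and a log2 fold change of 1.53 (SE 0.22, limma adjusted p = 0.0014). Epor was also the only listed gene of these 43 between F-EPC and OVX-EPC, where OVX-EPC had 310, 277 and 309 reads, and it was lower in F-EPC by -1.95 (SE 0.20, limma adjusted p = 0.00041). With factors recomputed on the listed genes this value was -0.81 by edgeR and -0.82 by DESeq2, under the fold threshold.

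Genes of the blood lineages in which the 3 factors act were counted next. Of 36 megakaryocyte and platelet genes, 27 were listed against F-EPC, 26 lower and 1, Thbs1, higher in M-EPC, with a median log2 fold change of -4.09, and 26 against OVX-EPC, all 26 lower with a median of -5.18. The largest were Selp (-6.11, SE 0.58, against F-EPC and -6.77, SE 0.57, against OVX-EPC), Gp6 (-5.63, SE 0.61, and -6.17, SE 0.59), Trpc6 against F-EPC (-5.66, SE 0.26) and Tubb1 against OVX-EPC (-6.33, SE 0.36). Without M-EPC 3 the values were -5.49 and -6.14 for Selp and -6.30 and -6.84 for Gp6. Thbs1 was under the fold threshold with DESeq2's own size factors. Summed normalized counts of the listed genes ran from 17329 to 17519 in M-EPC and from 25710 to 26238 in F-EPC, and in the other table, which does not list Thbs1, from 2173 to 2394 in M-EPC and from 25467 to 26614 in OVX-EPC. None of them was at 0 in every M-EPC library.

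Of 36 basophil, mast cell and eosinophil genes, 12 were listed against F-EPC and 15 against OVX-EPC, all lower in M-EPC, with medians of -3.65 and -3.46. They summed to between 122.0 and 172.4 normalized counts in M-EPC against 858.3 to 954.5 in F-EPC, and to between 59.8 and 90.0 in M-EPC against 984.5 to 1158 in OVX-EPC. Mcpt8, Ms4a3, Epx and Alox15 were at 0 in every M-EPC library. Prss34 had log2 fold changes of -5.60 (SE 0.48) against F-EPC and -6.49 (SE 0.48) against OVX-EPC. Promoters of these lineages were searched for the motifs above. Of the 25 megakaryocyte and platelet genes called lower in M-EPC in both comparisons, 21 matched the RefSeq table and 9 windows (42.9%) held a GATA motif and 2 (9.52%) AAATCA. Of the 11 such basophil, mast cell and eosinophil genes, 9 matched, and 6 windows (66.7%) held a GATA motif and 3 (33.3%) AAATCA. Against 26.5% and 12.4% of all windows these are descriptions of small lists, without a test.

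Fewer genes of the erythroid list were listed than of these lists. Of 32 erythroid genes, 4 were listed in each table, 3 lower and 1 (Epor) higher in M-EPC than in F-EPC and 4 lower than in OVX-EPC, with medians of -2.05 and -2.31. Summed levels were between 11672 and 11901 in M-EPC against 34082 to 38022 in F-EPC, and between 11714 and 12012 in M-EPC against 38659 to 39840 in OVX-EPC, nearly all of it from Tfrc, the transferrin receptor that dividing cells of many kinds use. The globin genes, Alas2 and Klf1, genes that define red cell precursors, were in none of the tables. Of the other listed genes, Sptb had log2 fold changes of -2.48 (SE 0.18) and -3.04 (SE 0.19), and Aqp1 of -2.10 (SE 0.23) against OVX-EPC. Car2, at -2.53 (SE 0.74) against OVX-EPC, was at -3.38 without M-EPC 3 and was not called without OVX-EPC 2 (limma adjusted p = 0.057).

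The authors' gene ontology terms place all 3 factors in erythrocyte differentiation, which had 17 listed genes against F-EPC (14 lower and 3 higher in M-EPC) and 14 against OVX-EPC (12 lower and 2 higher). They place Gata1 and Gata2 in megakaryocyte differentiation, with 13 listed genes (11 lower and 2 higher) and 12 (all lower). These counts include the factors themselves. Of the listed genes with any such term, 812 of 1362 were lower and 525 higher in M-EPC than in F-EPC. Against OVX-EPC 646 of 874 were lower and 223 higher. Nothing is read from the counts of the 2 terms.

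Of 22 stem and progenitor cell genes, 9 were listed against F-EPC, all lower in M-EPC with a median of -3.69, and 9 against OVX-EPC, 8 lower and 1 (Procr) higher with a median of -3.92. Mmrn1, in this list too, had log2 fold changes of -5.35 (SE 0.32) and -5.98 (SE 0.32), and Angpt1, the ligand of the endothelial receptor TIE2, of -4.26 (SE 0.12) and -4.69 (SE 0.20). Endothelial genes were listed 7 and 6 times of 32, with 5 lower and 2 (Pecam1 and Stab2) higher in M-EPC than in F-EPC and 6 lower than in OVX-EPC, and medians of -1.72 and -2.21. Vwf, which megakaryocytes also express, had the largest of these log2 fold changes, -3.34 (SE 0.10) and -3.86 (SE 0.13).

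Markers of further cell types were counted in the same way. Neutrophil genes had 12 of 20 listed against F-EPC, all lower in M-EPC, and 8 against OVX-EPC, 7 lower and 1 higher, with sums of 224.6 to 282.01 in M-EPC against 1408 to 1454 in F-EPC and of 170.4 to 231.5 against 604.0 to 644.4 in OVX-EPC. Cxcr2 and, in the first table, Itgb2l were at 0 in every M-EPC library. Lymphocyte genes had 9 and 15 of 22 listed, all lower in M-EPC, with sums of 42.2 to 44.7 in M-EPC against 232.4 to 270.6 in F-EPC and of 2303 to 2542 against 9233 to 10047 in OVX-EPC, and Klrb1c was at 0 in every M-EPC library. Monocyte, macrophage and dendritic cell genes had 11 of 25 listed in each table, 6 lower and 5 higher in M-EPC, the 5 including the antigen presentation genes H2-Aa, H2-Ab1, H2-Eb1 and Ciita. Their sums were 154691 to 159327 in M-EPC against 5524 to 6005 in F-EPC, and 159267 to 163715 against 29586 to 32555 in OVX-EPC, and Cd209a was at 0 in every M-EPC library. Stromal genes had 3 of 15 listed against F-EPC, all higher in M-EPC, and 4 against OVX-EPC, all lower. The part that cells of these types had in the levels of Gata1, Gata2 and Gfi1b was not tested.

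**Figure D4:**
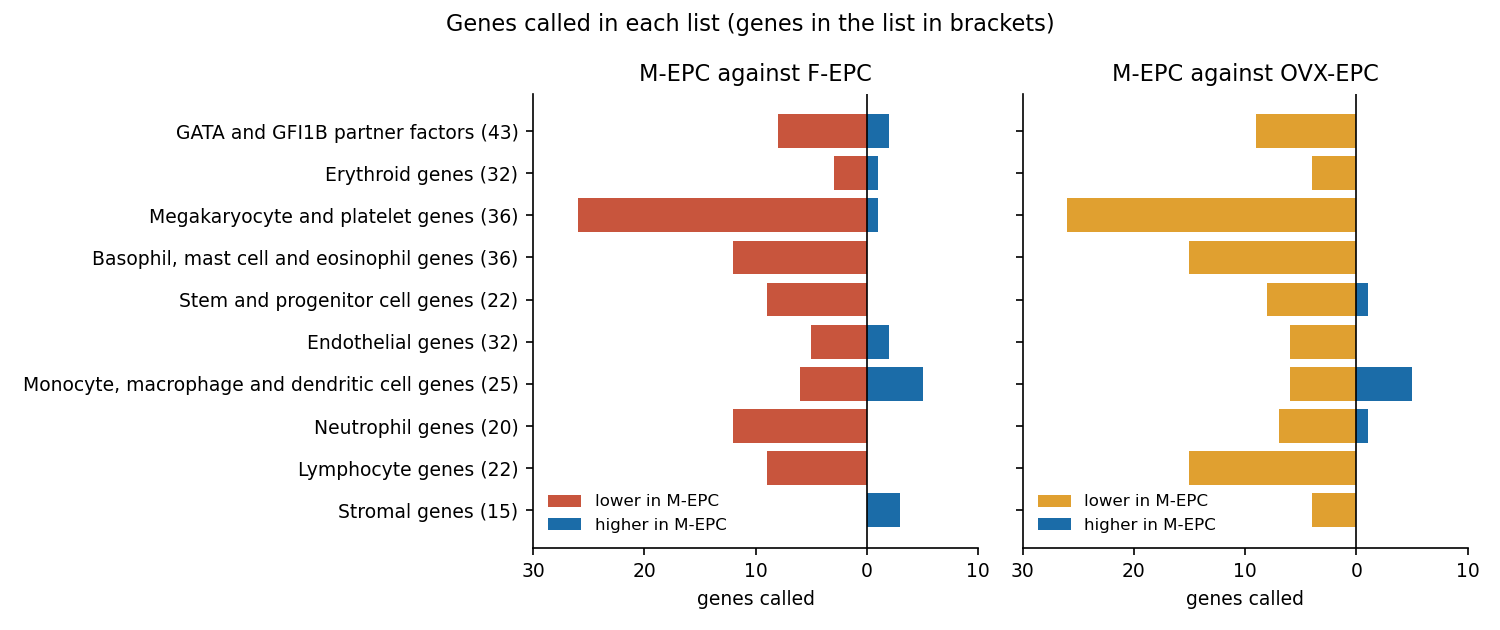
Genes called by limma in each of 10 lists, with bars to the left for genes lower in M-EPC and to the right for genes higher in M-EPC, against F-EPC (left panel) and against OVX-EPC (right panel). Numbers in brackets are the genes in the list, and genes without a bar were not listed or not called. The longest bars are those of the megakaryocyte and platelet genes, with 26 lower in each panel.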

How the data were processed

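RNA of the 9 libraries was sequenced after preparation with a directional kit. Per the submitters' processing notes and the study's methods, reads were mapped with HISAT2 to mm10, quantified with Cufflinks and Cuffnorm, and compared with DESeq at a screen of 2-fold. Whether counting used strand was not given in the sources used here. For each pair of groups the authors deposited a table of normalized counts (unit: signal), with annotation and with their own fold changes and p-values, which were not used.

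Whole reads were recovered for 100% of values by finding each library's size factor. They were identical for the 807, 435 and 292 genes that pairs of tables share. Limma 3.58.1 in R 4.3.3 was fitted to log2(normalized count + 1) of the 6 libraries of each table, with no covariate, genes kept at a mean of 1 or more in any group (all passed), and p-values adjusted by Benjamini-Hochberg within each table. EdgeR 4.0.16 and DESeq2 1.42.0 on the recovered reads were alternatives, as were a pseudocount of 0.5, a filter at a mean of 10, a replicate block and leaving out each library. The fits were tested on simulated data. Exact tests used SciPy 1.17.1 and figures matplotlib 3.10.9. Depth beyond the listed genes is unknown, so the precision of each value is that of its reads.

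The 3 genes and the gene lists were chosen with earlier results of these data known. Named were the 3 genes, every listed partner factor, up to 4 genes per other list with the largest change against F-EPC or OVX-EPC, 2 between F-EPC and OVX-EPC, and the 5 genes most like each factor. Of these, the text gives values where they bear on the 3 genes, and some of the genes are counted in their lists but not reported by name here. Xist and the Y-linked genes checked the labels. Thbs1, Stab2, Ms4a3, Epx and Alox15 fall outside the rule and were named after their values were seen, to account for counts.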

Additional observations from a re-analysis of the deposited data

How the results depend on the processing

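The 3 genes kept their direction against F-EPC and OVX-EPC in every alternative. Values of Gfi1b, with 1 read in M-EPC, moved by more than their spread between libraries. Against F-EPC its log2 fold change was -6.35 with a pseudocount of 0.5, -7.01 and -6.94 by edgeR with the authors' and TMM factors, and -7.35 and -7.71 by DESeq2 with the authors' and its own factors. Against OVX-EPC these were -7.07, -7.68, -7.50, -8.004 and -7.38. With factors recomputed on the listed genes, F-EPC minus OVX-EPC turned positive: 0.31 (edgeR TMM) and 0.30 (DESeq2) for Gata1, 0.74 and 0.73 for Gata2, 0.47 and 0.47 for Gfi1b. Between F-EPC and OVX-EPC these factors left 404 and 380 of 796 calls, and raised the share of calls higher in F-EPC from 31.4% to 63.1% and 67.1%. They were set on genes screened to differ and shifted the median by 1.13, so the changes of sign and share cannot decide a direction. DESeq2's own factors moved the share higher in M-EPC from 49.5% to 37.2% against F-EPC and from 41.3% to 52.6% against OVX-EPC. They shifted medians by -0.35 and 0.63, left 1 partner factor (Epor) and 0 megakaryocyte and platelet genes called higher in M-EPC than in F-EPC, and did so by the fold threshold. The median over all genes listed against F-EPC lies at the gap around 0 and was -0.99, or 0.99 with a filter at a mean of 10. Replicate numbers did not pair the libraries, since same-numbered libraries correlated between -0.044 and 0.035. The replicate block called 2003, 1288 and 781 genes against 2043, 1301 and 796 without it, and left the log2 fold changes of the 3 genes the same. The other 543 values of alternatives stayed close to the main ones. Close meant a count of calls within a set ratio, or a log2 fold change within the spread between libraries. Leaving out each library in turn, the log2 fold changes ran from -5.68 to -4.54 and -6.58 to -5.44 for Gata1, -6.69 to -5.47 and -7.11 to -5.87 for Gata2 and -5.85 to -5.29 and -6.58 to -6.11 for Gfi1b, against F-EPC and OVX-EPC. Few M-EPC reads limit every fold of the 3 genes.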
